A study of Mus musculus with 8 samples.

Results

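The proteasome genes described here are the genes of the array design whose symbol begins with Psm, a letter from a to g, and a digit. They comprised 68 probes of 41174 and 44 genes of 27573. All 44 genes entered the tests and 43 were well above background on all 8 arrays. The exception was Psma8, an alpha subunit of the testis. By role the genes fell into 8 alpha and 7 constitutive beta subunits of the core, 3 immune beta subunits, 6 ATPase and 11 non-ATPase subunits of the cap, 3 assembly chaperones (Psmd5, Psmd9 and Psmd10), and 5 activators or regulators (Psme1 to Psme4 and Psmf1). Psmc3ip carries such a symbol because its protein binds the cap ATPase Psmc3, but it is a meiotic recombination factor and no proteasome subunit, so it is given on its own. The core assembly chaperones Psmg1, Psmg2 and Psmg3 stood under older names in the files and were read as related genes.

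The proteasome degrades proteins that carry ubiquitin chains. Its barrel-shaped core holds the proteases, in beta rings between gating alpha rings, and its cap binds, unfolds and feeds in the substrate with a ring of ATPases and a set of non-ATPase subunits. In cells exposed to interferon gamma, and constitutively in many leukocytes, the catalytic subunits Psmb5, Psmb6 and Psmb7 are replaced in newly made cores by Psmb8, Psmb9 and Psmb10, which favours peptides for MHC class I presentation. Rapamycin inhibits mTORC1, a growth-promoting kinase complex that also influences proteasome gene expression.

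The mouse samples were untreated AKT-induced salivary gland tumours (n = 2), such tumours after 3 days (n = 1) and 14 days (n = 2) of rapamycin, and untreated normal parotid (n = 2) and submandibular (n = 1) glands. The transgene's promoter, the strain, age and dose are not given in the sources used here. The labels do not say whether replicates are different mice, so p-values measure only the spread between these samples. Sex-linked transcripts, given below, differed between the replicates of the untreated tumours and of the parotid glands. A level is a probe's processed signal on the log2 scale after subtraction of that array's 75th percentile, a difference is on the same log2 scale, and values after ± are standard errors. A gene rose or fell where its limma adjusted p, over all 16366 genes tested, was under 0.05. Shares of all genes that passed are given for the main fit only. Counts under other settings thus show how far the count of proteasome genes moved, not an excess over all genes. Groups are said not to overlap where all values of a group lay on the same side of all values of the other. With at most 2 arrays a group this is a description only, and the share of all genes without overlap was not counted.

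The 75th-percentile signal differed between the groups, at 966 and 972 in untreated tumours, 730 after 3 days and 177 and 236 after 14 days of rapamycin, 384 and 145 in parotid and 277 in the submandibular gland, and the share of spots well above background from 43.2% to 58.4%. The part of this difference in brightness in the results was not tested beyond the other normalizations. Slide 1 held both untreated tumours with replicate 1 of the day 14 tumours and of the parotid glands, and slide 2 the other 4 arrays. Values on slide 1 alone thus rest on 1 day 14 and 1 parotid array, with 1 residual degree of freedom from the pair of untreated tumours. The day 3 and submandibular arrays shared no slide with the untreated tumours, and only the fit with slide as a block, through the day 14 and parotid arrays, sets them apart from slide. The tissues differed in cell type markers as well. Skeletal muscle markers (8 genes) averaged 6.22 and 6.42 in the day 14 tumours, against −5.50 and −5.61 in the untreated tumours, and −4.36 and 2.98 in the 2 parotid glands. Leukocyte markers (18 genes) averaged 1.37 and 1.53 at day 14, against −3.28 and −3.39 in untreated tumours, and 2.79 and −0.67 in parotid. In both untreated tumours 7 of these leukocyte markers, among them Cd3e, Cd8a and Ms4a1, were not well above background. Markers of dividing cells (10 genes) averaged −1.83 and −1.77 at day 14, against 2.98 and 2.99 in untreated tumours. Acinar markers (10 genes) averaged 8.27 and 8.38 at day 14, against −2.38 and 0.82 in untreated tumours. The parotid glands thus differed from each other in muscle and leukocyte markers, and both day 14 arrays held Xist (−2.02 and −2.32) together with the Y-linked Eif2s3y (2.30 and 1.99) above background, whereas each other array held only 1 of the pair. Untreated tumour replicate 1 held Eif2s3y (1.92) and replicate 2 Xist (4.25), and parotid replicate 1 held Xist (4.54) and replicate 2 Eif2s3y (1.91). The replicates of each of these groups thus came from mice of different sex. In bulk tissue, fewer cells of a type and less RNA per cell cannot be told apart, and the part that these markers have in the results below was not tested.

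**Figure D1:**
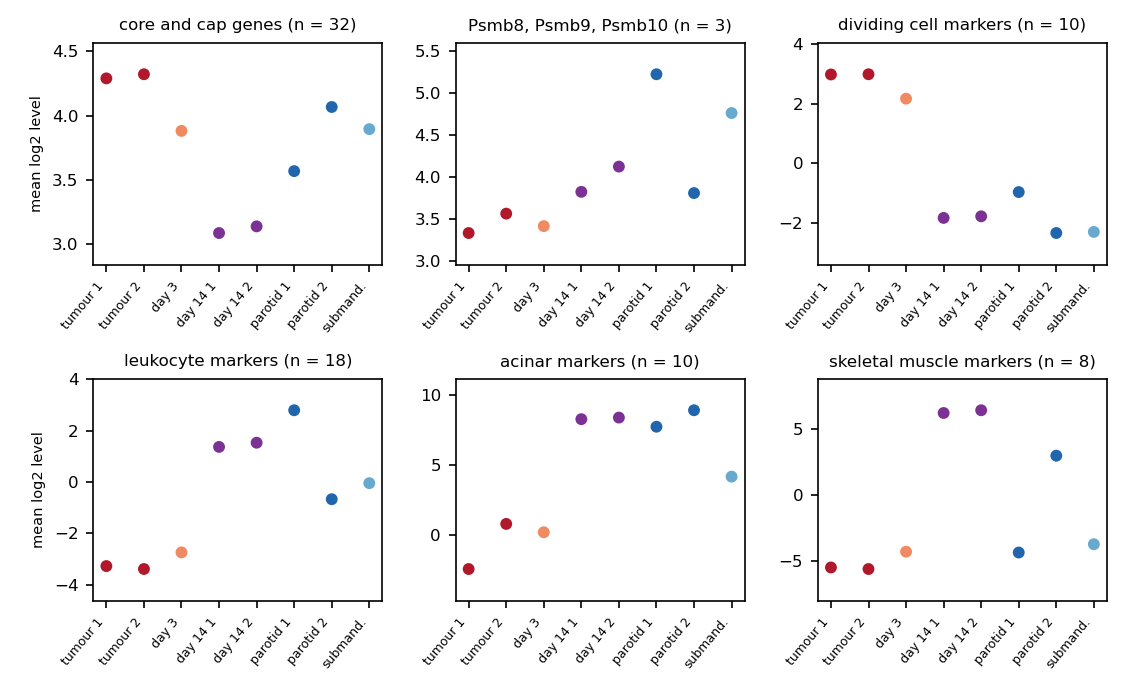
Mean log2 level of the core and cap genes, of the 3 immune subunits and of 4 marker lists on each of the 8 arrays (vertical axes, which differ between panels; n is the number of genes). Each point is 1 array, and the colours mark the 5 groups. Core and cap genes averaged 3.09 and 3.14 at day 14, below every other array, and muscle markers were high at day 14 and in parotid replicate 2.

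Tumours after 14 days of rapamycin had lower levels of most proteasome genes than untreated tumours. Of the 44 genes 29 fell and 0 rose, where 23.1% of all genes tested fell, 24.8% rose and 47.8% changed in either direction. The median difference was −1.18 over the 44 genes and 0.05 over all genes, and 40 of the 44 differences were below 0. The falls covered 6 of 8 alpha subunits, 3 of 7 constitutive beta subunits, 6 of 6 cap ATPases, 8 of 11 non-ATPase cap subunits, 3 of 3 cap assembly chaperones, 2 of 5 activators and regulators, 0 of 3 immune subunits, and Psmc3ip. On the arrays of slide 1 alone 36 genes passed the test, and with slide as a fixed block 29 did. The count was 14 without day 14 replicate 1, 18 without day 14 replicate 2, 16 and 15 without replicates 1 and 2 of the untreated tumours, and 38 without either parotid array.

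**Figure D2:**
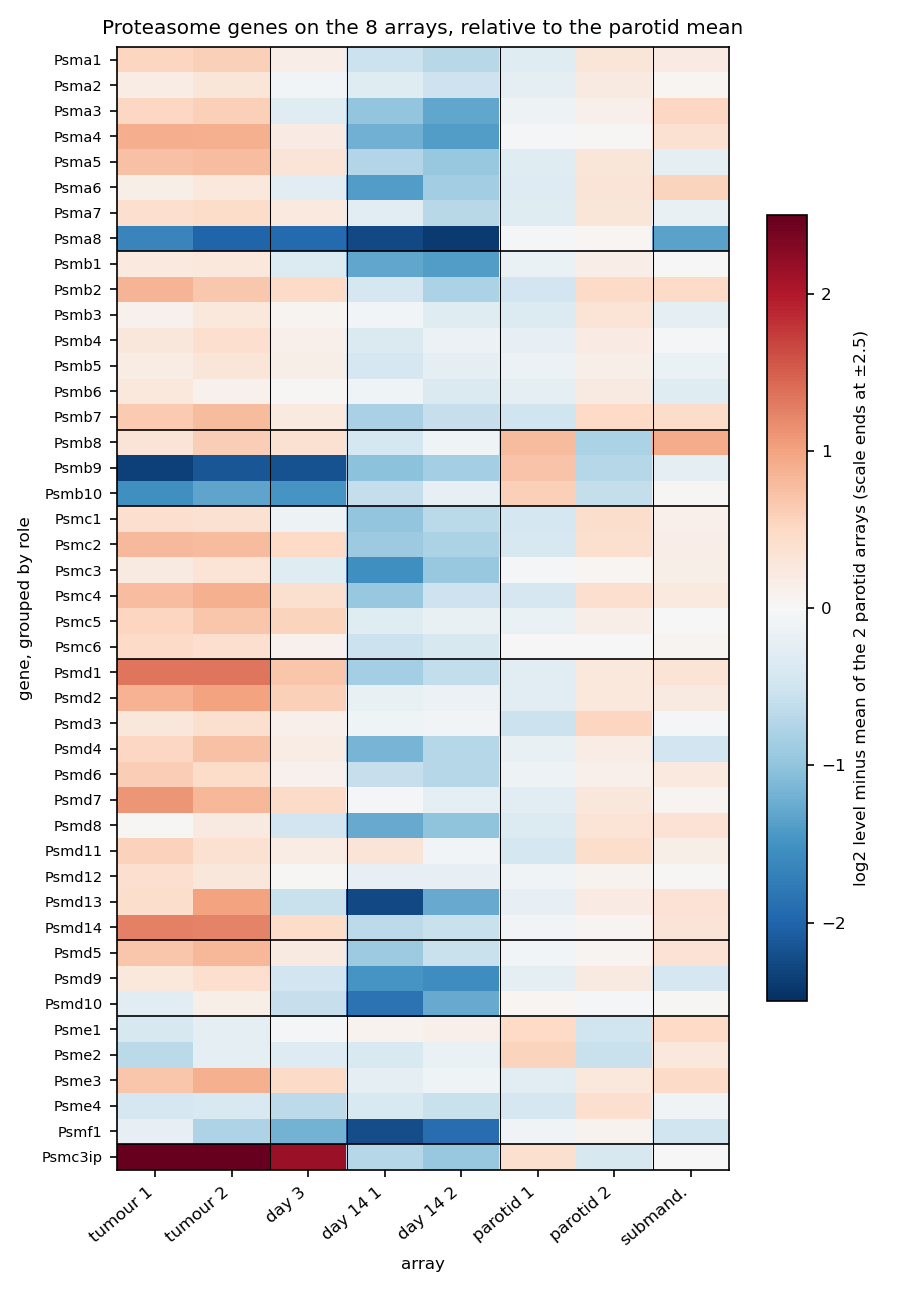
Level of each of the 44 genes on each array, as the log2 difference from the gene's mean over the 2 parotid arrays (red higher, blue lower, colour scale ending at ±2.5). Black lines part the roles, from core alpha subunits at the top through core beta, immune beta, cap ATPase, cap non-ATPase, assembly chaperones and activators to Psmc3ip, and the groups of arrays. Most rows are red in untreated tumours and blue at day 14, while Psmb9 and Psmb10 are blue in untreated tumours.

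Among the alpha subunits, which form the outer rings of the core, Psma4 had the largest fall. Psma4 was at 2.76 and 2.74 in untreated tumours, 2.07 after 3 days and 0.66 and 0.46 after 14 days of rapamycin, 1.83 and 1.88 in parotid and 2.23 in the submandibular gland. The day 14 tumours were the lowest of all arrays, at −2.20 ± 0.19 from untreated tumours (adjusted p = 0.000569), or 4.58-fold lower. Psma3 was at 1.57 and 1.26 at day 14, against 3.09 and 3.15 in untreated tumours (−1.70 ± 0.21, adjusted p = 0.00167). The smallest falls of the class were those of Psma1 (3.93 and 3.78 at day 14, against 5.01 and 5.07; −1.18 ± 0.25, adjusted p = 0.0111) and Psma7 (5.54 and 5.13, against 6.25 and 6.30; −0.93 ± 0.29, adjusted p = 0.0382). Neither gene overlapped between the groups. Psma2 had the narrowest spread of the alpha subunits, with group means within 0.65 of each other, and its difference of −0.65 ± 0.25 did not pass (adjusted p = 0.0703). Psma8 had the widest, 2.32, and is described with the parotid comparison.

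Of the constitutive beta subunits, the structural subunits Psmb1 and Psmb2 and the catalytic Psmb7 fell. Psmb1 was at 2.92 and 2.83 at day 14, against 4.47 and 4.49 in untreated tumours (−1.60 ± 0.20, adjusted p = 0.00165). Psmb2 was at −0.38 and −0.74, against 0.89 and 0.72 (−1.36 ± 0.37, adjusted p = 0.0243). For each gene both day 14 values lay below both untreated values. Psmb3 had the narrowest spread of the class, 0.43 over the group means, with 6.31 and 6.07 at day 14, against 6.49 and 6.63 (−0.37 ± 0.29, adjusted p = 0.338). This is the brightest of 2 Psmb3 probes, and the other one fell by 1.19 on the log2 scale (adjusted p = 0.00718 in the fit of single probes).

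The 3 constitutive proteases of the core differed in size of change. Psmb5, the chymotrypsin-like protease, was at 4.61 and 4.72 in untreated tumours, 4.56 after 3 days and 4.001 and 4.20 after 14 days of rapamycin, 4.28 and 4.56 in parotid and 4.25 in the submandibular gland. Day 14 lay below untreated tumours without overlap, but the difference of −0.57 ± 0.21 did not pass (adjusted p = 0.0624). Psmb6, the caspase-like protease, was at 5.49 and 5.32 in untreated tumours, 5.25 after 3 days and 5.11 and 4.86 after 14 days of rapamycin, 4.99 and 5.44 in parotid and 4.91 in the submandibular gland, with −0.42 ± 0.24 between day 14 and untreated tumours (adjusted p = 0.198). Psmb7, the trypsin-like protease, was at 3.96 and 4.08 in untreated tumours, 3.54 after 3 days and 2.48 and 2.71 after 14 days of rapamycin, 2.79 and 3.80 in parotid and 3.75 in the submandibular gland. It fell at day 14 (−1.43 ± 0.34, adjusted p = 0.0164), and parotid replicate 1 lay close to the day 14 values. Whether the 3 proteases differ from each other in their change was not tested.

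All 6 ATPases of the cap, which unfold the substrate and open the core, fell at day 14, with a median of −1.38. The largest falls were those of Psmc2 (3.53 and 3.63 at day 14, against 5.25 and 5.22 in untreated tumours; −1.65 ± 0.29, adjusted p = 0.00524) and Psmc4 (3.16 and 3.59, against 4.88 and 4.98; −1.56 ± 0.32, adjusted p = 0.00986). The smallest were those of Psmc5 (2.67 and 2.79, against 3.50 and 3.67; −0.85 ± 0.21, adjusted p = 0.0173) and Psmc6 (4.39 and 4.52, against 5.40 and 5.35; −0.92 ± 0.19, adjusted p = 0.0097). These ranks rest on the brightest probes, and the other probe of Psmc5 gave −3.21 and that of Psmc2 1.03. No ATPase overlapped between the groups, a description for which the share of all genes was not counted.

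By the brightest probe of each gene, Psmd13 had the largest difference of the proteasome subunits. Psmd13, a non-ATPase subunit of the lid of the cap, was at −1.08 and −0.07 at day 14, against 1.62 and 2.20 in untreated tumours (−2.48 ± 0.41, adjusted p = 0.00421). Psmd1, one of the large scaffold subunits, was at 3.095 and 3.094 in untreated tumours, 2.44 after 3 days and 0.90 and 1.14 after 14 days of rapamycin, 1.49 and 2.01 in parotid and 2.09 in the submandibular gland (day 14 against untreated tumour −2.08 ± 0.24, adjusted p = 0.00136). Psmd14, the metalloprotease that removes ubiquitin chains from substrates, was at 4.26 and 4.24 in untreated tumours, 3.47 after 3 days and 2.36 and 2.45 after 14 days of rapamycin, 2.93 and 3.07 in parotid and 3.32 in the submandibular gland (−1.84 ± 0.18, adjusted p = 0.000778). For both genes the untreated tumours were the highest arrays and the day 14 tumours the lowest. The smallest falls were those of Psmd2, the other large scaffold subunit (−1.10 ± 0.24, adjusted p = 0.0121), and Psmd7, the inactive partner of Psmd14 (−1.11 ± 0.26, adjusted p = 0.0145). These ranks rest on the brightest probes. The other Psmd2 probe gave −2.34 and also passed in the fit of single probes, and the other Psmd14 probe gave −3.49. Psmd3 had the narrowest spread, 0.43 over the group means, with 6.73 and 6.75 at day 14, against 7.12 and 7.23 (−0.43 ± 0.38, adjusted p = 0.378).

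The cap assembly chaperones fell too. Psmd9 was at −0.46 and −0.52 at day 14, against 1.28 and 1.44 in untreated tumours (−1.85 ± 0.25, adjusted p = 0.0022). Psmd5 was at 0.89 and 1.24, against 2.49 and 2.62 (−1.49 ± 0.22, adjusted p = 0.0028), and Psmd10, also known as gankyrin, at −2.09 and −1.51, against −0.53 and −0.09 (−1.49 ± 0.33, adjusted p = 0.0127). All 3 genes had day 14 values below both untreated values. The core assembly chaperones Psmg1, Psmg2 and Psmg3 also fell, 3 of 3, by a median of 1.23 on the log2 scale.

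Of the activators, which bind the ends of the core, only the nuclear Psme3 fell (−0.97 ± 0.27, adjusted p = 0.0273), as did Psmf1, a core-binding protein first described as an inhibitor (−2.16 and −1.83 at day 14, against −0.14 and −0.72; −1.57 ± 0.33, adjusted p = 0.00988). Psme1, a subunit of the interferon-induced activator, was at 4.39 and 4.56 in untreated tumours, 4.74 after 3 days and 4.88 and 4.91 after 14 days of rapamycin, 5.28 and 4.29 in parotid and 5.28 in the submandibular gland. Its partner Psme2 was at 4.88 and 5.34 in untreated tumours, 5.24 after 3 days and 5.18 and 5.40 after 14 days of rapamycin, 6.13 and 4.999 in parotid and 5.83 in the submandibular gland. Day 14 minus untreated tumour was 0.42 ± 0.34 for Psme1 (adjusted p = 0.339) and 0.17 ± 0.40 for Psme2 (adjusted p = 0.738). Psme2 overlapped between the groups, and its difference was −0.01 with quantile normalization and −0.03 with the deposited values. For both genes the widest gap within a group was between the parotid glands, in which replicate 1 was higher. Psme4, an activator known for histone degradation in the testis, had the narrowest spread of the class, 0.66 over the group means (−0.07 ± 0.31 at day 14, adjusted p = 0.864).

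Psmc3ip, the recombination factor, showed the largest change of the 44 genes. It was at 1.12 and 1.12 in untreated tumours, 0.62 after 3 days and −2.24 and −2.48 after 14 days of rapamycin, −1.14 and −1.92 in parotid and −1.52 in the submandibular gland. Untreated and day 3 tumours formed the high arrays, and day 14 lay below untreated tumours by −3.48 ± 0.35 (adjusted p = 0.00082). Over the same arrays the markers of dividing cells were high in untreated tumours and at day 3 (mean 2.17) and low elsewhere, and their part in this change was not tested.

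**Figure D3:**
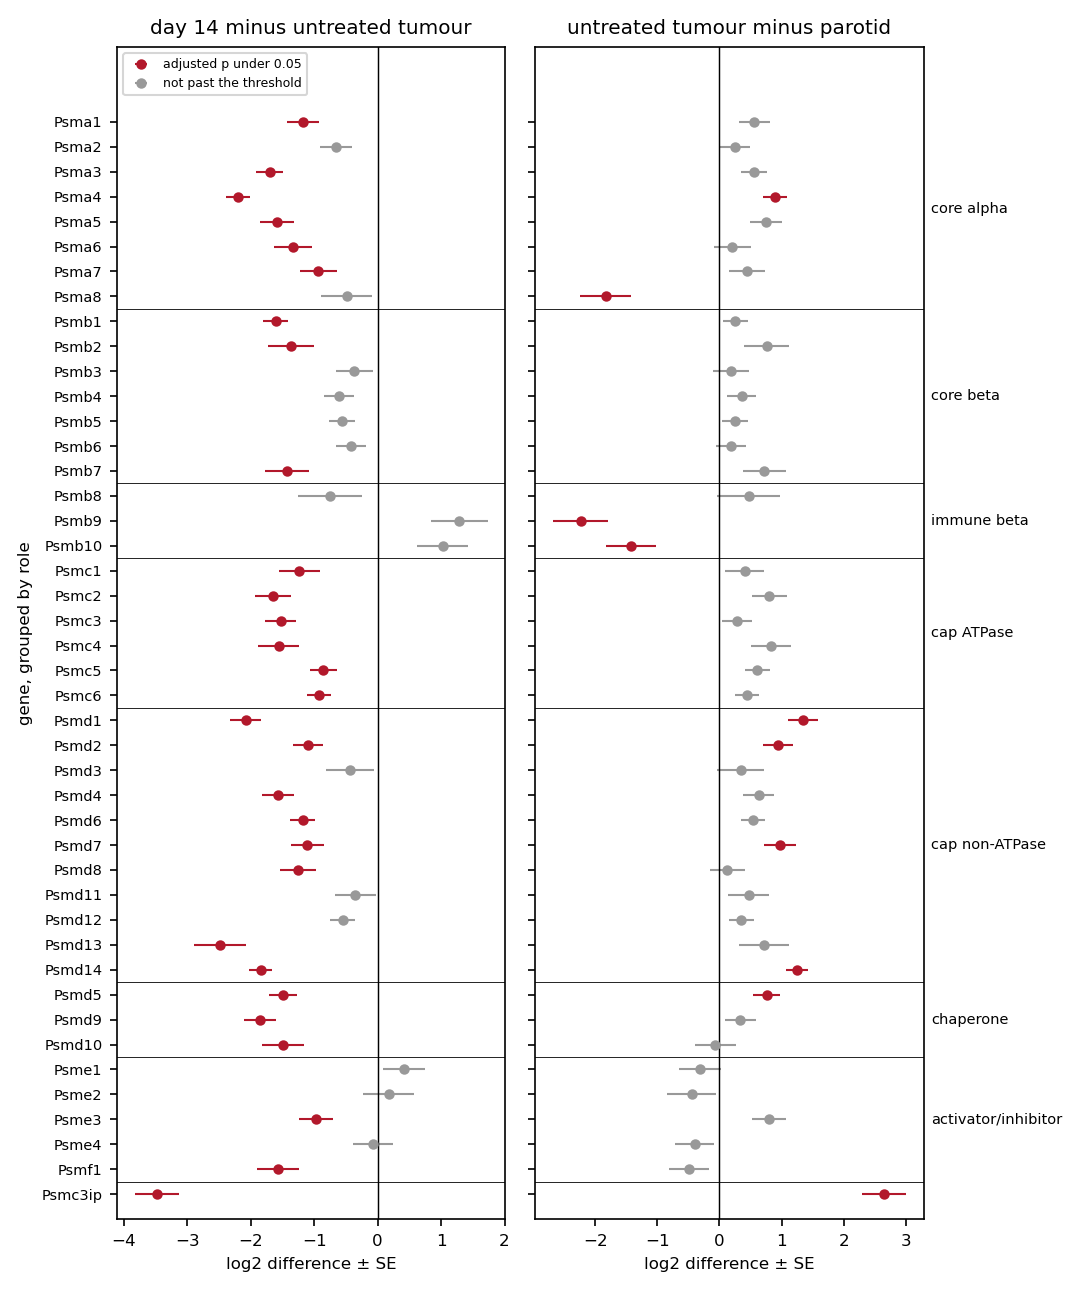
Log2 difference with its standard error for each gene, day 14 minus untreated tumour on the left (n = 2 and 2) and untreated tumour minus parotid on the right (n = 2 and 2). Red points have a limma adjusted p under 0.05 and grey points do not. On the left 29 genes are red and all lie below 0, and on the right 7 red genes lie above 0 and 3 below.

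None of the 3 immune subunits passed the test between day 14 and untreated tumours, and their differences had unlike signs. Psmb8, Psmb9 and Psmb10 replace Psmb5, Psmb6 and Psmb7. Psmb8 and Psmb9 lie in the MHC class II region, where their probes map to chr17:33811038-33811097 and chr17:33792517-33792576, and the Psmb10 probe maps to chr8:108824906-108824965 (mm8 assembly). Their upstream sequences and those of Psmb5 and Psmb6 are shown because these are the genes whose values are set side by side below. The table of promoters used here, from RefSeq on GRCm38.p6, held 37 of the 44 genes, and Psmb7 was not among them. Each sequence below is the 250 bases before the annotated start, 5′ to 3′ on the gene's strand. Capitals mark matches on either strand to the gamma-activated site TTCNNNGAA or to the antioxidant response element TGACNNNGC, and the interferon-stimulated response element (GAAA, any 2 bases, GAAA), also searched on both strands, has no match in these 5. The motifs do not overlap each other in these sequences.
Psmb8 (chr17:34197945-34198194, plus strand): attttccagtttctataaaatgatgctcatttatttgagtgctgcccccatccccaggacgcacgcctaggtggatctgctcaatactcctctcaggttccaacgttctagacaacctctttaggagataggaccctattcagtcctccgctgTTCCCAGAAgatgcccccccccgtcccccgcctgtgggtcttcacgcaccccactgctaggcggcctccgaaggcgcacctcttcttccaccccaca
Psmb9 (chr17:34187331-34187580, minus strand): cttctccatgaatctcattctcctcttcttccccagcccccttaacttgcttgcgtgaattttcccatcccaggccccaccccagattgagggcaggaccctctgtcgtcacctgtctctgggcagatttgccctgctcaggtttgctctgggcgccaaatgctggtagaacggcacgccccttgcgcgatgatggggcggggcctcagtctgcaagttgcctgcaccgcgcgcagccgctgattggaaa
Psmb10 (chr8:105938393-105938642, minus strand): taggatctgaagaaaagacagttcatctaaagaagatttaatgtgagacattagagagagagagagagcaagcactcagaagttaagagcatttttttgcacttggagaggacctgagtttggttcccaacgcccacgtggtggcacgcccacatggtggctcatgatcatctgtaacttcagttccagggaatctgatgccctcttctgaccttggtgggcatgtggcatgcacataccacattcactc
Psmb5 (chr14:54617996-54618245, minus strand): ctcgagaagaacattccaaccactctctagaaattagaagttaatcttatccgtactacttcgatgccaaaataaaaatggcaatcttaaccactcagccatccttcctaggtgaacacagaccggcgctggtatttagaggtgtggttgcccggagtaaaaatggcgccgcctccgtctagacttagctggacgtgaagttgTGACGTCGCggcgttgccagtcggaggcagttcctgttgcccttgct
Psmb6 (chr11:70525107-70525356, plus strand): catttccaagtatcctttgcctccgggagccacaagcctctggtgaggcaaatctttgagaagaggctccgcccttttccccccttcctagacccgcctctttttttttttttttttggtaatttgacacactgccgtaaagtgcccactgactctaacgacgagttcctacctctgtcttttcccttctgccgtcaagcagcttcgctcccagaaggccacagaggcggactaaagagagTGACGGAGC
Psmb8 held 1 gamma-activated match, 97 to 89 bases before the start, and Psmb9 and Psmb10 held none of the 3 motifs in this window. Psmb5 and Psmb6 each held 1 antioxidant match, 47 to 39 and 9 to 1 bases before the start. Over the 40 promoters of proteasome genes the antioxidant motif was in 12.5%, against 10.2% of all 32851 promoters of the same length, the interferon-stimulated motif in 7.5%, against 2.98%, and the gamma-activated motif in 2.5%, against 7.02%. These matches describe letters in a window, not binding sites.

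Psmb9, which replaces the caspase-like Psmb6, had its lowest values in the tumours that had not reached day 14. It was at 1.87 and 2.06 in untreated tumours, 2.01 after 3 days and 3.16 and 3.34 after 14 days of rapamycin, 4.91 and 3.48 in parotid and 3.97 in the submandibular gland. The untreated tumours lay below all normal glands, at −2.23 ± 0.45 from parotid (adjusted p = 0.0108) and −2.01 ± 0.55 from the submandibular gland (adjusted p = 0.0376). Between day 14 and untreated tumours the values did not overlap, and the difference of 1.29 ± 0.45 missed the threshold (adjusted p = 0.0545). Over the other settings that adjusted p ranged from 0.000582 to 0.207, with 0.000614 without parotid replicate 1, 0.000582 without parotid replicate 2, 0.00652 on slide 1 alone and 0.0381 with slide as a fixed block. The fall against parotid was −2.95 without parotid replicate 2, −1.52 without parotid replicate 1, and −2.14 without untreated tumour replicate 1, where it did not pass (adjusted p = 0.0581).

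Psmb10, the trypsin-like immune subunit, ran alongside Psmb9. It was at 3.07 and 3.28 in untreated tumours, 3.12 after 3 days and 4.004 and 4.40 after 14 days of rapamycin, 5.20 and 4.01 in parotid and 4.63 in the submandibular gland. Untreated tumours were below parotid without overlap (−1.43 ± 0.40, adjusted p = 0.0336), and below the submandibular gland by a difference that did not pass (−1.46 ± 0.49, adjusted p = 0.0702). Day 14 was above untreated tumours without overlap, by 1.03 ± 0.40, which did not pass (adjusted p = 0.0766). It passed with no filter on dim probes (adjusted p = 0.0378), on slide 1 alone (0.0165) and without either parotid array (0.00312 and 0.00308). The call against parotid was lost without either untreated tumour (adjusted p = 0.144 without replicate 1 and 0.108 without replicate 2) and without either day 14 array (0.0725 and 0.0723), and with quantile normalization or the deposited values (0.0745 and 0.057). The fall was −2.03 without parotid replicate 2 and −0.83 without parotid replicate 1.

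Psmb8, the chymotrypsin-like immune subunit, was at 5.06 and 5.37 in untreated tumours, 5.12 after 3 days and 4.31 and 4.63 after 14 days of rapamycin, 5.55 and 3.95 in parotid and 5.68 in the submandibular gland. The parotid values enclosed those of all 5 tumours, and untreated tumour minus parotid was 0.47 ± 0.50 (adjusted p = 0.49). That value was 1.27 without parotid replicate 1 (adjusted p = 0.00402) and −0.33 without parotid replicate 2, so its sign rested on which parotid gland was read. Day 14 lay below untreated tumours without overlap, by −0.75 ± 0.50 (adjusted p = 0.26). It passed without either parotid array (adjusted p = 0.0111 and 0.0112) and on slide 1 alone (0.0188), and was −0.43 with slide as a fixed block (adjusted p = 0.537). Its other probe gave −0.99, and was at 3.63 and 4.05 at day 14, against 4.58 and 5.07 in untreated tumours, so both Psmb8 probes had the same order of groups here. Across the 8 arrays, Psmb9 and Psmb10 had a Pearson correlation of 0.98, whereas Psmb8 correlated at 0.10 with Psmb9 and 0.15 with Psmb10. These values describe 8 arrays that differ in brightness and cell makeup.

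Within each array the gap between an immune subunit and the one it replaces moved between groups. Probes differ in response, so only the change of such a gap between arrays can be read. Psmb9 minus Psmb6 was −1.95 and −1.52 at day 14, against −3.62 and −3.26 in untreated tumours, and −0.08 and −1.96 in parotid. Psmb10 minus Psmb7 was 1.53 and 1.69 at day 14, against −0.88 and −0.80 in untreated tumours, and 2.41 and 0.21 in parotid. Psmb8 minus Psmb5 was 0.31 and 0.43 at day 14, against 0.45 and 0.65 in untreated tumours, and 1.27 and −0.61 in parotid. The gap was higher at day 14 than in untreated tumours, without overlap, for the pairs of Psmb9 and of Psmb10, and lower for that of Psmb8, and the difference between pairs was not tested. The mean of the leukocyte markers, like Psmb9 and Psmb10, was higher at day 14 than in untreated tumours and higher in parotid replicate 1 than in replicate 2. In the submandibular gland, however, Psmb9 and Psmb10 were above both day 14 values while that mean (−0.05) was below its day 14 values. Single markers did not all follow the mean. At day 14, 15 of the 18 were above untreated tumours, and the myeloid Cd68, Itgam and Csf1r were not. Cd68 averaged 1.67 in untreated tumours and −1.25 at day 14, Itgam −4.15 and −5.56 (not well above background at day 14), and Csf1r 1.54 and 1.53. Cd68 (0.32 and 0.78), Itgam and Jchain were lower in parotid replicate 1 than in replicate 2.

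**Figure D4:**
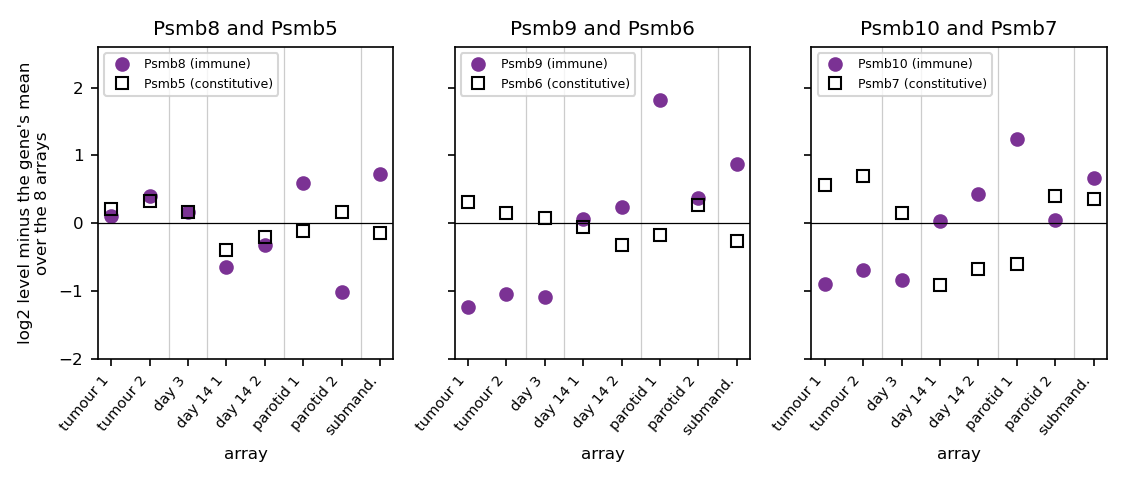
Log2 level of each immune subunit (filled circles) and of the constitutive subunit it replaces (open squares), each minus its own mean over the 8 arrays, by array. Psmb9 and Psmb10 lie below their means on the untreated and day 3 tumour arrays and Psmb8 does not, and parotid replicate 1 is the highest array for Psmb9 and Psmb10.

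Compared with parotid glands, untreated tumours showed no excess of changed proteasome genes in the main fit (22.7%, against 39.1% of all genes). Whether this holds under the other settings is not shown here. A few cap genes were higher in them and 2 immune subunits lower. Of the 44 genes 7 rose and 3 fell in untreated tumours, where 18.3% of all genes rose and 20.8% fell, 39.1% in all. The median difference was 0.44 over the 44 genes, with 36 above 0, and −0.01 over all genes. That median was 0.23 without parotid replicate 1, 0.67 without parotid replicate 2 and 0.76 with quantile normalization. The parotid glands differed from each other about as much, since 36 of the 44 genes were lower in replicate 1 than in replicate 2, with a median of −0.41. The count of 10 was 28 without parotid replicate 2 or on slide 1 alone, 2 without untreated tumour replicate 1 and 3 without its replicate 2, and it was 6 without either day 14 array, and it was 27 with quantile normalization and 24 with the deposited values.

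Of the 7 genes that rose 4 were among the 17 cap subunits, a share near that of all genes. Psmd1 rose by 1.34 ± 0.24 (adjusted p = 0.00762) and Psmd14 by 1.25 ± 0.18 (adjusted p = 0.00335), with the values given above and no overlap. Psmd7 was at 3.58 and 3.31 in untreated tumours, against 2.20 and 2.75 in parotid (0.97 ± 0.26, adjusted p = 0.028), and Psmd2 at 4.95 and 5.10, against 3.82 and 4.36 (0.94 ± 0.24, adjusted p = 0.0254). Psma4 was the only alpha subunit to rise (0.90 ± 0.19, adjusted p = 0.0142) and Psmd5 the only chaperone of the 3 (0.76 ± 0.22, adjusted p = 0.035). None of the 7 constitutive beta subunits and none of the 6 ATPases passed, with median differences of 0.25 and 0.53. Psmc3ip rose by 2.65 ± 0.35 (adjusted p = 0.00236).

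Besides Psmb9 and Psmb10, Psma8 was lower in untreated tumours. This testis subunit was at −3.92 and −4.27 in untreated tumours, against −2.31 and −2.21 in parotid, above background on all 4 arrays (−1.83 ± 0.40, adjusted p = 0.015). On the day 3, day 14 and submandibular arrays it was not well above background, and in day 14 tumours it was at least 4.997-fold lower than in parotid (adjusted p = 0.023). Both Psma8 differences depended on the background correction. With normexp they were −0.87 in untreated tumours (adjusted p = 0.448) and −0.36 at day 14 (adjusted p = 0.951), and with the deposited values −0.90 (adjusted p = 0.102) and −1.79 (adjusted p = 0.0331). The first call was also lost without either untreated tumour, and the second on slide 1 alone and without any 1 of the untreated or day 14 arrays. A fold given as "at least" sets the mean of the group above background against a floor for the other group, averaged over its arrays: the lowest signal well above background there, or the gene's own if higher.

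Against the submandibular gland, a single array, untreated tumours had 4 rises and 1 fall among the 44 genes, where 29.5% of all genes changed. Psmc3ip (2.64 ± 0.43, adjusted p = 0.00668), the ubiquitin receptor Psmd4 (1.11 ± 0.31, adjusted p = 0.0387), Psmd1 (1.005 ± 0.299, adjusted p = 0.0488) and Psmd14 (0.93 ± 0.22, adjusted p = 0.0244) rose, and Psmb9 fell, a call lost in 8 of 14 other settings. The count of 5 was 14 without either parotid array and 1 without either day 14 or either untreated tumour array. Between the submandibular and parotid glands 0 of the 44 genes passed by limma, where 2.37% of all genes did (1.36% higher and 1.01% lower), and 1 had an unadjusted p under 0.05. That gene was Psma8, at −3.59 in the submandibular gland and not well above background there.

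At day 3 of rapamycin 0 of the 44 genes passed against untreated tumours by limma, where 0.00611% of all genes (1 gene) did. With a single day 3 array, 5 of the 44 had an unadjusted p under 0.05 (11.4%, against 8.79% of all genes), all lower, and 41 of the 44 differences were below 0, with a median of −0.38 over the 44 genes and 0.02 over all genes. The median was −0.62 with slide as a fixed block. The largest differences were those of Psmd13 (0.63 at day 3, against 1.62 and 2.20; −1.28 ± 0.50, adjusted p = 0.54), Psma3 (2.25, against 3.09 and 3.15; −0.87 ± 0.26, adjusted p = 0.421) and Psmd9 (0.54, against 1.28 and 1.44; −0.82 ± 0.31, adjusted p = 0.523). Psmb9 and Psmb10 differed from untreated tumours by 0.05 ± 0.55 and −0.05 ± 0.49.

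Between day 14 and day 3, 9 of the 44 genes fell and 0 rose, where 11% of all genes fell and 22.6% changed, and the median difference was −0.75. The largest falls were those of Psmc3ip (−2.99 ± 0.43, adjusted p = 0.00673), Psma4 (−1.51 ± 0.24, adjusted p = 0.00886), Psmd1 (−1.43 ± 0.30, adjusted p = 0.0212) and Psmc2 (−1.34 ± 0.35, adjusted p = 0.0402). The count was 26 without either parotid array, 1 and 0 without day 14 replicates 1 and 2, 2 without either untreated tumour, 22 with quantile normalization and 4 with slide as a fixed block. Both day 14 comparisons above share the day 14 arrays.

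Day 14 tumours were also below the parotid glands for part of the set. Of the 44 genes 9 fell and 0 rose, where 5.08% of all genes fell and 11.4% changed, and 42 of the differences were below 0, with a median of −0.63, against −0.02 over all genes. After Psma8 the lowest were Psmf1 (−2.06 ± 0.33, adjusted p = 0.0186), Psmd13 (−1.76 ± 0.41, adjusted p = 0.044) and Psmd10 (−2.09 and −1.51 at day 14, against −0.19 and −0.29 in parotid; −1.56 ± 0.33, adjusted p = 0.0363). No immune subunit passed, with −0.28 ± 0.50 for Psmb8, −0.94 ± 0.45 for Psmb9 and −0.40 ± 0.40 for Psmb10. These values rested on which parotid gland was read. Without parotid replicate 2 all 3 passed, at −1.08 for Psmb8 (adjusted p = 0.0182), −1.66 for Psmb9 (adjusted p = 0.00288) and −0.999 for Psmb10 (adjusted p = 0.0233), as they did on slide 1 alone. Without parotid replicate 1 none of the 3 did, at 0.52 for Psmb8, −0.23 for Psmb9 and 0.20 for Psmb10. Within slide 1 the median of day 14 minus parotid was −0.54, and within slide 2 it was −0.85, each from 1 array a group. The count was 28 without parotid replicate 1, 14 without parotid replicate 2, 0 without either day 14 array, and 1 and 2 without untreated tumour replicates 1 and 2.

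Of the 44 genes 17 had more than 1 probe that could be tested. Read as probes, 57 of 66 were lower at day 14 than in untreated tumours and 41 fell. The share of all kept probes that fell is not given here, so the 41 is no measure of an excess. All probes of 13 of the 17 genes lay below 0, but sizes differed. The dimmest probe had a lower difference than the brightest in 9 of the 17 genes. The brightest Psmc5 probe gave −0.85 and its other −3.21, and the brightest Psmd14 probe gave −1.84 and its other −3.49. Others went the opposite way. The brightest Psmd4 probe gave −1.57 and its other −0.32, that of Psmc6 −0.92 and its other −0.46, and that of Psmf1 −1.57 and its others −0.77 and −0.47. Each of these 3 genes had only 1 probe that passed. For Psmd12, a subunit of the lid, the brightest of 3 probes gave −0.55 (adjusted p = 0.0591 in the gene fit) and the others −0.93 and −2.04, which passed. Psmc2, Psmd7, Psme4 and Psme2 had a probe at or above 0. The second Psmc2 probe, designed on another transcript record and well above background on 7 of 8 arrays, gave 1.03, against −1.65 from the brightest, and the 4 Psme4 probes gave values between −1.67 and 0.71. For Psmc2, Psmd7 and Psme4 the sign depended on the probe.

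**Figure D5:**
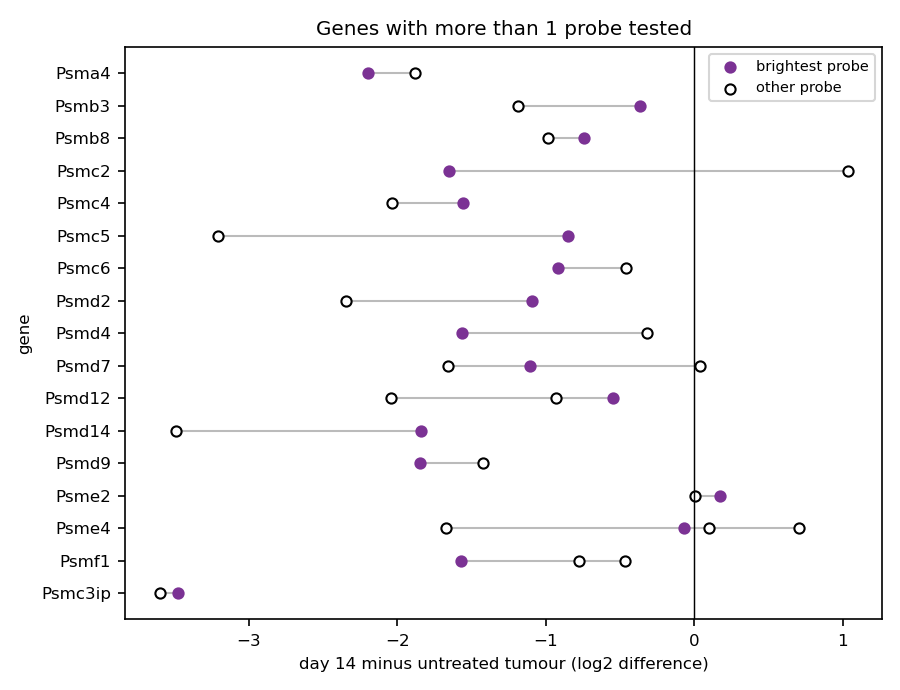
Log2 difference of day 14 minus untreated tumour for each probe of the 17 genes with more than 1 probe tested. Filled circles are the brightest probe, which stands for the gene in the text, open circles are the others, and lines join the probes of a gene. Psmc2, Psmd7 and Psme4 have probes on both sides of 0.

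Of 26 genes that act next to the proteasome 3 rose and 5 fell at day 14 against untreated tumours, with a median of −0.05. These shares are no higher than those of all genes, of which 24.8% rose and 23.1% fell. Uba1, the main ubiquitin-activating enzyme, was at 0.64 and 1.14 at day 14, against 2.94 and 3.26 in untreated tumours (−2.21 ± 0.28, adjusted p = 0.00165). Ddi2 and Ngly1 process Nfe2l1, a transcription factor of proteasome genes, and both rose. Ddi2, a protease, was at 5.35 and 5.29 at day 14, against 3.70 and 3.38 (1.78 ± 0.32, adjusted p = 0.00616). Ngly1, which removes sugar chains, was at 1.00 and 1.05, against −0.57 and −0.42 (1.52 ± 0.26, adjusted p = 0.00486). Against parotid, 2 of the 26 rose and 4 fell in untreated tumours, where 18.3% of all genes rose and 20.8% fell. Among them were Ngly1 (−2.24 ± 0.26, adjusted p = 0.00149) and the proteasome-binding Zfand5 (1.41 ± 0.22, adjusted p = 0.00454). Against the submandibular gland 0 rose and 2 fell in untreated tumours, Ngly1 (−1.56, adjusted p = 0.0143) and Ddi2 (−1.42, adjusted p = 0.0397), where 14.3% of all genes rose and 15.2% fell. Between day 14 and day 3 Ddi2 (1.49, adjusted p = 0.0419) and Ngly1 (1.20, adjusted p = 0.0407) rose and Uba1 fell (−1.24, adjusted p = 0.0455), where 11.6% of all genes rose and 11% fell. Against parotid Uba1 alone fell at day 14 (−1.41, adjusted p = 0.03), where 5.08% of all genes fell.

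Genes of antigen processing and interferon signalling were tested as the company of the immune subunits. Of 17 tested 9 rose and 0 fell at day 14 against untreated tumours, and 0 rose and 12 fell in untreated tumours against parotid, where 24.8% of all genes rose and 20.8% fell in those comparisons. At day 14 the 4 differences below 0 were those of the interferon-induced Isg15 (−0.84), Ifit1 (−0.49) and Ifit3 (−0.25) and of the peptide transporter subunit Tap2 (−0.24), none of which passed. B2m, the light chain of MHC class I, was at 3.15 and 3.03 in untreated tumours, 3.72 after 3 days and 6.06 and 6.36 after 14 days of rapamycin, 7.197 and 6.90 in parotid and 6.85 in the submandibular gland. It rose at day 14 (3.12 ± 0.23, adjusted p = 0.000353), and untreated tumours lay below parotid (−3.96 ± 0.23, adjusted p = 0.000183). Irf8, a transcription factor of myeloid and B cells, rose at day 14 (2.88 ± 0.70, adjusted p = 0.0176). Ifng, which encodes interferon gamma, was well above background on 3 arrays only, 1 each of day 14, parotid and submandibular gland. It was at −3.03 and −2.49 at day 14 and −1.13 and −4.33 in parotid, against −7.34 and −7.78 in untreated tumours. Ifng passed by limma at day 14 against untreated tumours (adjusted p = 0.0107) and in untreated tumours against parotid (adjusted p = 0.0129). No fold is given, because both groups set against the untreated tumours include an array not well above background. The class I heavy chain H2-K1 was at 5.73 and 5.95 in untreated tumours, against 8.86 and 9.05 in parotid (−3.12 ± 0.27, adjusted p = 0.000552). Against the submandibular gland 11 of the 17 fell in untreated tumours, where 15.2% of all genes fell. Ifng is among these, but it was kept for the tests only because it was above background on that single array. Its fall there thus follows in part from the filter. Between day 14 and day 3, 3 rose (17.6%, against 11.6% of all genes), namely B2m (2.49), H2-K1 (2.47) and the interferon signal transducer Stat2 (1.07). Between day 14 and parotid 0 of 17 passed by limma, where 11.4% of all genes did. Leukocyte markers moved the same way in part, 12 of 18 rising and 1 (Cd68) falling at day 14. In untreated tumours against parotid 1 rose (Cd68) and 8 fell. The part of these markers in the changes was not tested. Tap1, the peptide transporter encoded beside Psmb9, was at −0.48 and −0.40 at day 14, against −0.77 and −0.30 in untreated tumours, with overlap.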

How the data were processed

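Expression in 8 salivary gland or tumour samples was read on Agilent 1-colour arrays. Per the file headers, Feature Extraction 10.7.3.1 gave each spot a background-subtracted processed intensity, with mean and local background intensities and quality calls. Arrays were not scaled to each other in the deposited intensities. The authors' deposited value table is on a log2 scale; its normalization is not given in the sources used here, and it was an alternative only. Probe positions are on mm8.

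Non-uniform and outlier spots were dropped. Of 41174 probes 24286 were kept, each well above background throughout 1 group or more, and the brightest stood for each of 16366 genes. Symbols were updated through RefSeq by accession for 23374 probes, by symbol for 6733 and by synonym for 2919. Log2 processed signal minus the array's 75th percentile entered a limma 3.58.1 model (R 4.3.3) of 5 group means over 8 arrays with an intensity trend. Residual and prior degrees of freedom were 3 and 3.27. The single day 3 and submandibular arrays take their spread from the replicated groups. Benjamini-Hochberg adjustment ran over all genes of a comparison, two-sided, threshold 0.05. All comparisons share the pooled spread, and those that share a group share its arrays. The fit was run on simulated data with known shifts and independent noise, as a check of the code only. The simulation held no differences in slide, brightness or cell makeup.

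The proteasome genes and the lists were chosen with earlier results of these data known. Named are Psmb5 to Psmb10, Psme1 and Psme2; per role, the 2 highest and 2 lowest genes past the threshold at day 14 or against parotid, and those with the widest and narrowest spread; up to 4 genes in other comparisons; 3 per related list, of which 1 is not reported here; and the 10 most correlated genes. Tap1, Tap2, Isg15, Ifit1, Ifit3, Psmg1 to Psmg3, Psmd12 and other genes with discordant probes were named after their values were seen. Alternatives were normexp (offset 50), quantile normalization, median centring, the deposited values, no filter, a filter on all arrays, single probes, slide as a block or slide 1 alone, at least 2-fold, and leaving out each array. The number of arrays limits the precision.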

Additional observations from a re-analysis of the deposited data

How the results depend on the processing

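No proteasome gene named as past the threshold at day 14 or in untreated tumours against parotid changed sign in the settings that keep its brightest probe, but Psmc2 (1.03) and Psmd7 (0.04) were above 0 at day 14 on another probe. Psmb6, Psmb8, Psme1 and Psme2, none past the threshold, changed sign in 1 to 3 settings. For day 14 against untreated tumour the count of 29 lay between 25 and 37 under the settings that count genes over all arrays or slide 1 alone, was 41 of 66 as probes, and lay between 14 and 38 when 1 array was left out. For untreated tumour against parotid the count of 10 was 6 at 2-fold or more, 21 as probes, 27 with quantile normalization, 24 with the deposited values and 28 on slide 1 alone, and 2 to 28 when 1 array was left out. For untreated tumour against the submandibular gland the count of 5 was 11 as probes, 3 with normexp, 16 with quantile normalization, 16 with the deposited values, 8 with no filter and 3 with slide as a fixed block, and 1 to 14 with 1 array left out. For day 14 against day 3 the count of 9 was 15 as probes, 15 with normexp, 22 with quantile normalization, 21 with the deposited values and 4 with slide as a fixed block, and 0 to 26 with 1 array left out. For day 14 against parotid the count of 9 was 19 as probes, and 0 to 28 with 1 array left out. For the submandibular gland against parotid it was 0, and 0 to 2 with 1 array left out. The day 3 count was 0 in each setting. The share of all genes that passed is not given for these settings, so the counts cannot be read as an excess or a lack of proteasome genes. Leaving out an array leaves 2 residual degrees of freedom. Without a parotid array the day 14 and untreated means stay as they were, and only the pooled spread and its degrees of freedom change. For Psmb8, Psmb9 and Psmb10 the standard deviation was 1.13, 1.01 and 0.85 in parotid, against 0.13 to 0.28 in untreated and day 14 tumours. The cause of the other shifts was not tested. The median difference of all genes moved by over 0.1 (log2) with normexp (−0.15 for untreated tumour against parotid, 0.16 for day 14 against untreated tumour), quantile normalization (0.11 and −0.10) and the deposited values (0.13 and −0.16), and the median of the 44 genes at day 14 was −1.13, −1.24 and −1.34 under these. No paired analysis was possible because the titles of the samples share only the number 2 between groups, and the first day 14 and parotid samples carry no number.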

Other observations

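Genes outside the set with the most similar levels over the 8 arrays differed between the immune subunits and the set as a whole. For the mean of Psmb8, Psmb9 and Psmb10 the highest Pearson correlations were those of Igtp (0.97) and Irgm1 (0.96), interferon-induced GTPases, then Slamf8 (0.95), Lcp1 (0.95), an actin-bundling protein of leukocytes, Tgtp1 (0.95), Zfp655 (0.95), Tmem243 (0.95), Gbp2 (0.94), Trim56 (0.93) and Phf11d (0.93). For the mean of all 44 genes they were those of Cndp2 (0.997), a dipeptidase, Ints5 (0.997), Hars (0.994) and Rars2 (0.989), aminoacyl-tRNA synthetases, Cdv3 (0.993), Brix1 (0.992), a ribosome assembly factor, C1d (0.992), Twnk (0.992), a mitochondrial helicase, Fdps (0.989), an enzyme of isoprenoid synthesis, and Capzb (0.989). These are descriptions over 8 arrays that differ in brightness and cell makeup, picked as the highest of all genes tested.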
